A study of Mus musculus with 2 samples.

Results

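The genes described here are the 58 chemokine and chemokine receptor genes among the 21938 protein-coding genes of the nuclear chromosomes in the GENCODE M21 basic annotation. They were chosen by symbol alone (Ccl, Cxcl, Ccr, Cxcr or Ackr followed by a digit, or Cx3c) and comprise 36 ligands and 22 receptors. Their relation to YY1 was read from 1 ChIP-seq peak list, in which DNA recovered with a YY1 antibody from muscle stem cells (MuSCs) was compared with 1 background library. By the study's methods the cells were freshly isolated and pooled from Ctrl mdx mice (Pax7 CreERT2/R26YFP; Yy1 +/+; mdx), which lack dystrophin and carry a Cre that is driven by Pax7, with unaltered Yy1. The sample labels describe cultured MuSCs and the design text WT cells, and the background is called input in the labels and IgG in the methods. There were no replicates, so no value below carries an error between animals or libraries, and no test was made.

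Chemokines are small secreted proteins that guide leukocytes along gradients, and they act through membrane receptors that couple to Gi proteins. The CC, CXC and CX3C families are named for the spacing of their first cysteines. Atypical receptors bind chemokines without G protein signalling, and some of them remove the chemokine. In injured and dystrophic muscle, chemokines from stem, immune and stromal cells draw in monocytes and macrophages. YY1 is a zinc finger protein that binds DNA mostly at promoters, where it can activate or repress genes.

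The list holds 4681 peaks, each with a summit, a fold enrichment over the local background and a q-value. The fold enrichment is the number of fragments at the summit plus 1, divided by the background plus 1. A gene was called bound when a summit lay within 1000 bp of 1 of its transcript starts. The number of fragments at a summit was recovered from the deposited values and ranged from 8 to 394, with a median of 14. Over the most frequent local background of 1.54 fragments, 8 fragments were the fewest that could pass the peak caller's limit, so weaker binding was not detectable at this depth. Of the marker genes of MuSCs, 1 of 8 was bound (Pax7, fold enrichment 2.65, 117 fragments over a high local background of 43.5). The counts were 1 of 6 for macrophages (Cd68), 0 of 4 for fibro-adipogenic progenitors and 0 of 3 for endothelial cells, beside 18.8% of all protein-coding genes. A peak list does not measure expression, so these markers do not check the purity of the cells.

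Of the 58 genes, 1 was bound, which is 1.72%, while 18.8% of all protein-coding genes (4119) were bound by the same rule. The bound gene was Ccl25, a ligand of Ccr9 that guides T cell precursors and gut lymphocytes. By family, 1 of 23 CC ligands and 0 of 12 CXC ligands were bound. Among the receptors, 0 of 11 CC receptors, 0 of 6 CXC receptors and 0 of 4 atypical receptors were bound, and neither gene of the CX3C pair (Cx3cl1 and Cx3cr1) was. The 58 genes have 98 distinct start sites, of which 1 was bound, beside 18.4% of the start sites of all protein-coding genes. Just inside the window of 1000 bp lay Ccl25, at 314 bp, and the member just outside it was Cxcl16, at 27.5 kb. Within 5 kb of a summit lay 1.72% of the members and 20.4% of all protein-coding genes.

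The peak at Ccl25 lies at chr8:4324478-4325098 (mm10), with its summit at 4324919. It had 15 fragments over a background of 2.12, a fold enrichment of 5.12 and a q-value of 1.07e-05. This was a typical peak, since 47.2% of the 3777 peaks in coding promoters had a lower fold enrichment and the median of these peaks was 5.13. It is shared with Elavl1, which encodes the RNA-binding protein HuR and is transcribed in the opposite direction from a start 180 bp away from the Ccl25 start. This Ccl25 start lies inside Elavl1, so the 2 genes overlap. The summit fell 494 bp downstream of the Elavl1 start, in the 5′ untranslated part of the first exon (4324886 to 4325413) of 1 of its 2 transcripts, and 314 bp upstream of the Ccl25 start at 4325233. That Ccl25 start belongs to a single transcript with the lowest support level of the annotation, 5. The other Ccl25 start, 24.4 kb downstream at 4349588, is used by 2 transcripts with the best support level, 1, and lay 24.7 kb from the summit. When only starts of transcripts with support level 1 were counted, 0 of the 56 members that have one were bound, while 21.2% of such protein-coding genes were.

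The summit and the sequence before the well-supported Ccl25 start are shown because they differ in base composition. CpG dinucleotides (CG) are in capitals. The first line gives 29 bases at the summit of the shared peak (chr8:4324905-4324933, plus strand), with 5 CpG. Of these bases 86.2% were G or C, against 73.3% over the whole peak. The second gives the 250 bases before the RefSeq start of the well-supported transcripts (chr8:4349338-4349587, plus strand). They hold 0 CpG, and 51.6% of them were G or C.
Ccl25 and Elavl1 peak: ccCGggactctgctcCGgggCGggCGgCG
Ccl25 upstream: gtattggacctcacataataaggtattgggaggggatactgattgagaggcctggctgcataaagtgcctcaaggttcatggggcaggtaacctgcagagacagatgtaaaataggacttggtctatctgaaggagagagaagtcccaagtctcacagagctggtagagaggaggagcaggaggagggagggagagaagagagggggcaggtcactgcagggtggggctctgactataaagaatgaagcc
Within 500 bp of the Ccl25 starts, the CpG ratio (the observed number of CpG over that expected from the C and G content) was 1.08 at the poorly supported start and 0.126 at the well-supported one. The ratio of the Elavl1 promoter was 1.05.

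**Figure D1:**
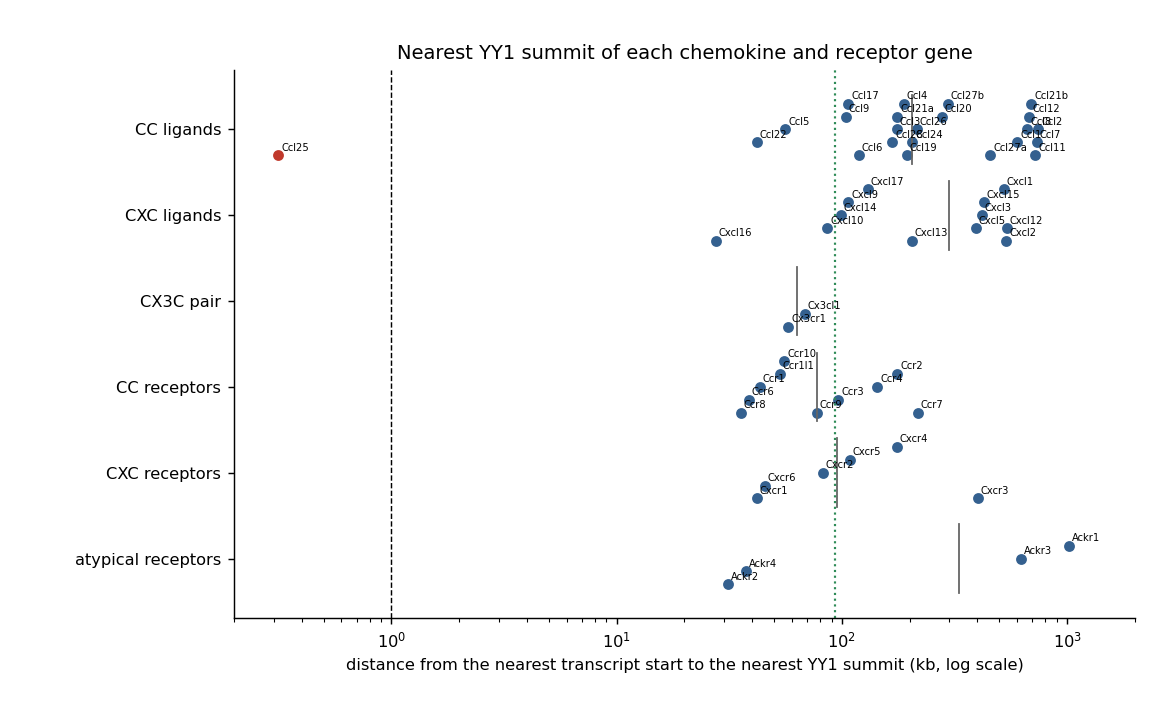
Distance in kb (log scale) from each chemokine or receptor gene to the nearest YY1 summit, by family. Points are genes (red, bound; 1 gene is not shown), grey bars are medians over all genes of a family, the dashed line is the window of 1000 bp and the dotted line is the median of all protein-coding genes, 93.7 kb; Ccl25 stands alone to the left of the dashed line.

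The nearest summit of a member lay at a median distance of 175 kb (quartiles 70.7 and 415 kb), against 93.7 kb for all protein-coding genes. Without bound genes the medians were 175 kb and 150 kb. Receptor genes lay closer to a summit than ligand genes, with medians of 79.9 and 205 kb, although neighbouring genes share a summit and are not independent. Of the receptors, 13 of 22 had a summit within 100 kb (59.1%), and of the ligands, 7 of 36 (19.4%), beside 51.3% of all protein-coding genes. In the plot of distances by family, the CC receptors spread from 35.7 to 217 kb, and the CC ligands other than Ccl25 from 42.0 to 746 kb.

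The 5 unbound members with the nearest summit were 1 ligand and 4 receptors. Cxcl16, a membrane-anchored ligand of Cxcr6, lay 27.5 kb from a peak of 16 fragments (fold enrichment 6.70) at the promoter of Arrb2, which encodes β-arrestin 2. Ackr2, which scavenges inflammatory CC chemokines, lay 31.3 kb from a peak with a fold enrichment of 8.68. That peak is in no annotated gene, and 93.2% of its stretches of 50 bases occur more than once in the genome. Whether reads of the length sequenced map there uniquely was not tested. Ccr8, a receptor of regulatory T cells, lay 35.7 kb from the peak at Rpsa, a ribosomal protein gene (4.34). Ackr4, which scavenges Ccl19, Ccl21 and Ccl25, lay 37.6 kb from the promoter peak of Acad11 (5.52). Ccr6, the receptor of Ccl20, lay 38.6 kb from the peak of the mitochondrial pyruvate carrier gene Mpc1 (5.04).

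At the other end, Ackr1, a chemokine-binding protein of red cells and venules, lay 1021 kb from the nearest summit, at Igsf8. It was followed by the monocyte attractants Ccl2 and Ccl7, at 746 and 736 kb. The ligands of Cxcr3 that interferon induces, Cxcl9 and Cxcl10, lay 107 and 86.2 kb from the peak of the nucleoporin gene Nup54 (fold enrichment 4.37), and Cxcr3 itself 402 kb from its nearest summit. Cxcl12, which retains stem and progenitor cells through Cxcr4, lay 540 kb from the Zfp422 peak (5.52). Its receptors Cxcr4 and Ackr3 lay 175 kb from the Dars peak (6.39) and 623 kb from a peak in Agap1 (4.73).

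The 58 genes had 31 different nearest peaks, and 11 of these served 38 genes. Of the 31 peaks, 24 had their summit in the promoter of a protein-coding gene (77.4%), beside 80.7% of all peaks, and 7 did not. Their fold enrichments ranged from 3.03 to 9.86, with a median of 5.52 beside 5.10 for all peaks. Shared promoter peaks included that of the DNA ligase gene Lig3 for Ccl1, Ccl2, Ccl7, Ccl8, Ccl11 and Ccl12, and that of Ankrd17 for Cxcl1, Cxcl2, Cxcl3, Cxcl5 and Cxcl15. A summit lay between the first and last base of 1 member (1.72%) and of 13.7% of all protein-coding genes. That member was Cx3cr1, the fractalkine receptor, whose gene spans 168 kb. The summit (fold enrichment 4.37, 12 fragments) lay 84.6 kb from its nearest start and 691 bp upstream of a start of Csrnp1.

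**Figure D2:**
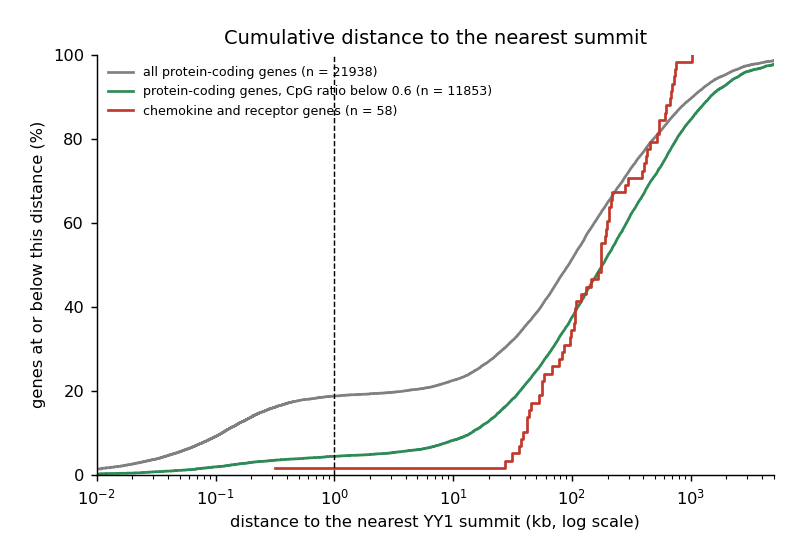
Cumulative share of genes (y, %) by distance to the nearest YY1 summit (x, kb, log scale) for all protein-coding genes, those with a CpG ratio below 0.6 and the members; the dashed line marks 1000 bp. The curve of the members stays flat from 0.314 to 27.5 kb, and its median of 175 kb is close to that of genes with a low CpG ratio, 181 kb.

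The choice of members did not use CpG content, which was lower in most of them than in bound genes. Within 500 bp of the gene's 5′ end, the median CpG ratio was 0.213 over the members, 0.552 over all protein-coding genes and 0.818 over bound genes. Of the members, 52 had a ratio below 0.6, and 0 of these were bound, beside 4.44% of all protein-coding genes below 0.6. The other 6 members had a ratio of 0.6 or more, and 1 of them was bound, beside 35.6%. Among all protein-coding genes, the share bound was higher in classes of higher CpG ratio, from 2.02% below 0.2 to 50.6% at 0.8 or more. The ratio was taken at the gene's 5′ end alone, while binding counted at any start of a gene. The background shares amount to 2.31 of 52 genes and 2.14 of 6 genes. Over the 5 classes in the plot of the share bound by CpG ratio they amount to 3.77 of the 58 members, beside 10.9 when CpG content is disregarded, and the count was 1. Genes with a ratio below 0.6 had a median distance of 181 kb to a summit, and the members below 0.6 had one of 176 kb.

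The 6 members with a ratio of 0.6 or more were Ccl25 (1.08), Ccr9 (0.927), Cxcl12 (0.782), Cxcl14 (0.717), Cxcr4 (0.625) and Cxcl16 (0.607). The ratio of Ccr9, the receptor of Ccl25, rests on an outlying start at 123678439, and its other 4 starts had ratios from 0.135 to 0.178. The nearest summit to any Ccr9 start lay at 77.4 kb. Upstream sequences of 3 unbound genes are shown with CpG in capitals, each as the 250 bases before its RefSeq start and on its own strand. Ccl3, an inflammatory ligand of Ccr1 (chr11:83649379-83649628, minus strand), holds 2 CpG. Cxcl12 (chr6:117168285-117168534, plus strand) holds 14, and Cxcr4 (chr1:128592300-128592549, minus strand) holds 19.
Ccl3: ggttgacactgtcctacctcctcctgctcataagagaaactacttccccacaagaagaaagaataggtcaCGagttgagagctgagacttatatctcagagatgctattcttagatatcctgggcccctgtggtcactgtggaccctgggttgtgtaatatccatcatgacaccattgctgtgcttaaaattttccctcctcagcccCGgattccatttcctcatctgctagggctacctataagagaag
Cxcl12: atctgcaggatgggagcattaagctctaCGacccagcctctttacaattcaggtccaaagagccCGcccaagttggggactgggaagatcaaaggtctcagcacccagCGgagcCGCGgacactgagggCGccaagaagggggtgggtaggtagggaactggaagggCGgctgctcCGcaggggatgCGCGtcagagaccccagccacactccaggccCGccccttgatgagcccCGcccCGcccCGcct
Cxcr4: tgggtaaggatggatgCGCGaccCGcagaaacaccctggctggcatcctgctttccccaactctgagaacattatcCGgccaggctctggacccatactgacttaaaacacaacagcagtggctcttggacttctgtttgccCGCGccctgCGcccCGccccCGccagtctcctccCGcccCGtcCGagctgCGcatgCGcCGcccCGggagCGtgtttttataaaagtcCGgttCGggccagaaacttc
The Cxcl12 and Cxcr4 stretches are rich in CpG, yet their nearest summits lay 540 and 175 kb away. RefSeq promoter entries were matched for 44 of the 58 members.

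**Figure D3:**
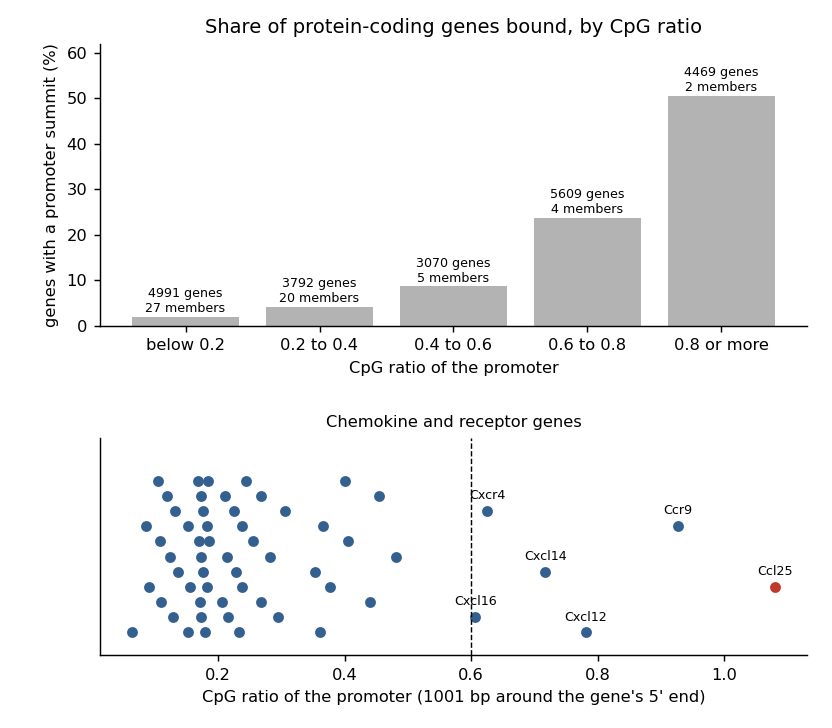
Upper panel, share of protein-coding genes with a promoter summit (y, %) by CpG ratio of the promoter (x), with the numbers of genes and members in each class. Lower panel, CpG ratio of each member (x; height has no meaning), with Ccl25 in red and a dashed line at 0.6; 52 of the 58 members lie to its left.

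The YY1 motif AANATGGC (N, any base; either strand) was present within 500 bp of the 5′ end of 7 members (12.1%) and of 16.9% of all protein-coding genes. They included Ackr4, with 2 copies, and Cxcr4 and Cxcl13, with 1 each, and 0 of the 7 were bound. Among all protein-coding genes, 25.2% of those with the motif and 17.5% of those without were bound. The shorter core ATGGC was present in 52 members (89.7%) and in 81.4% of all protein-coding genes, of which 18.8% of those with it and 18.6% of those without were bound. The Ccl25 peak held 1 core and no AANATGGC over its whole length, and within 100 bp of the summit it was absent from 93.4% of all peaks.

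On chromosome 11 the CC ligands form a pair of clusters. The first runs from Ccl2 to Ccl1 through Ccl7, Ccl11, Ccl12 and Ccl8, over 270 kb (chr11:82035571-82305690), and holds genes that attract monocytes and eosinophils. It had 0 peaks inside and 0 within 100 kb. The bordering summits lay 1607 kb before it, at the proteasome gene Psmd11 (fold enrichment 3.70, 10 fragments, with 1 AANATGGC), and 476 kb after it, at Lig3 (5.52, 13 fragments, without the motif). The interval of 2353 kb between these summits was longer than all but 5.24% of the 4660 intervals between neighbouring summits, whose median was 146 kb. Each interval counted once whatever its length, so long intervals hold a larger share of the genome than of the intervals. The interval of 2353 kb also contains the starts of 11 other protein-coding genes, 6 of them with a CpG ratio of 0.6 or more, of which 1, Lig3 at its edge, was bound.

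The second cluster holds Ccl5, Ccl9, Ccl6, Ccl3 and Ccl4 over 139 kb (chr11:83525778-83664683), and its genes encode attractants of monocytes and T cells. It also had 0 peaks inside, but 1 within 100 kb. That peak, at chr11:83474343-83474597, lay 51.4 kb from the cluster in an intron of Taf15, a gene for an RNA-binding protein of the transcription machinery. Its summit fell 1317 bp downstream of the RefSeq start of Taf15, outside the window of 1000 bp. Its distances to the starts were 56.1 kb for Ccl5, 104 kb for Ccl9, 119 kb for Ccl6, 175 kb for Ccl3 and 188 kb for Ccl4. With 9 fragments at the summit, a fold enrichment of 3.71 and a q-value of 0.0216, it was among the weaker peaks, and 12.1% of all peaks had a lower fold enrichment and 0.235% fewer fragments. It held neither AANATGGC nor ATGGC. On the other side the nearest summit lay 300 kb away at Synrg (5.13, with 1 AANATGGC), followed by Dusp14 (4.34) and Tada2a (5.52). The interval of 490 kb was exceeded by 23.9% of intervals, again with each counted once whatever its length. The 101 bases around the Taf15 summit (chr11:83474340-83474440, plus strand) contain 0 CpG. Over the whole peak, 40% of bases were G or C, against 73.3% over the Ccl25 peak.
Taf15 intron peak: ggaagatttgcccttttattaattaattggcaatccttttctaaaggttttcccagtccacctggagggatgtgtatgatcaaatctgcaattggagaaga

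**Figure D4:**
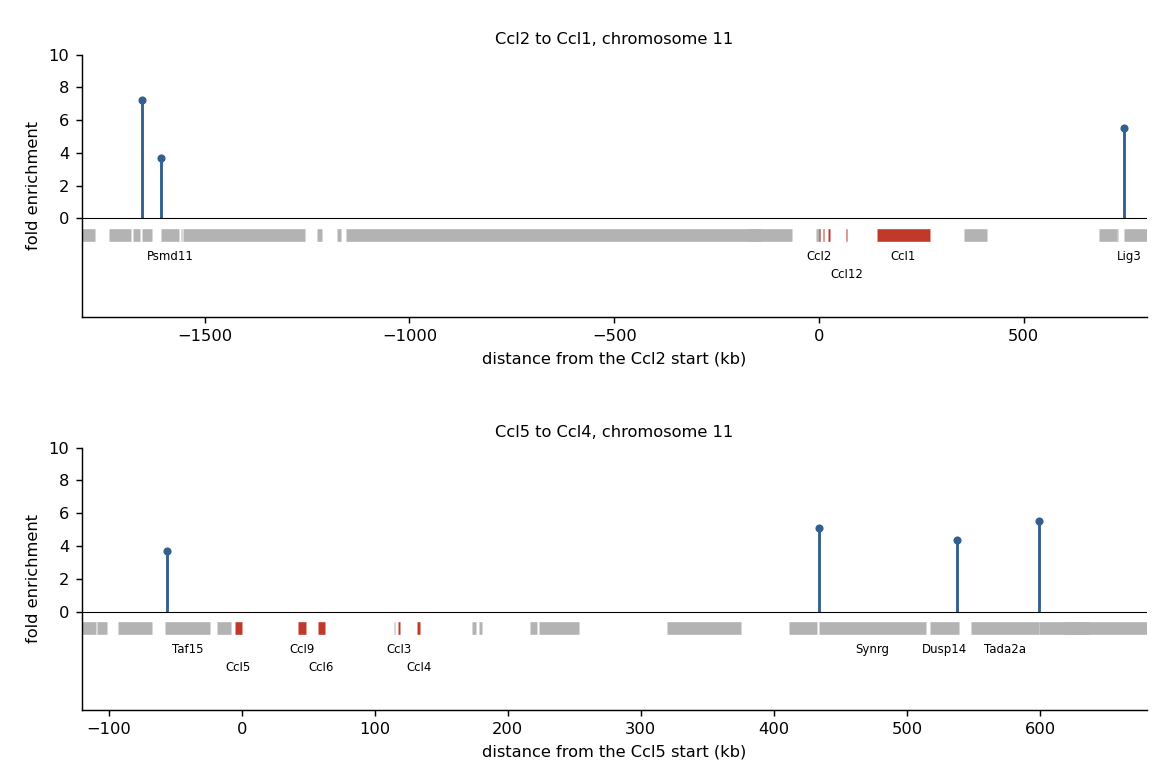
YY1 peaks (blue, height = fold enrichment) and protein-coding genes (grey; chemokine genes red) around the Ccl2 to Ccl1 cluster (upper panel; x, kb from the Ccl2 start) and the Ccl5 to Ccl4 cluster (lower panel; x, kb from the Ccl5 start). No peak stands above any red gene, and the peak nearest to Ccl5, of 3.71, is at Taf15.

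By the same definition (at least 2 members with less than 500 kb between neighbours), 10 clusters hold 39 of the 58 genes, and 8 of the 10 had 0 peaks inside. The 10 clusters together span 2.37 Mb and hold 4 peaks, or 1.69 per Mb, close to the 1.72 per Mb of all chromosomes. The exceptions were both receptor clusters of chromosome 9. Cx3cr1 and Ccr8 enclosed the Csrnp1 peak given above. The other, which includes Ccr9, Cxcr6, Ccr1, Ccr1l1, Ccr3 and Ccr2, held 3 peaks. This cluster encodes receptors of monocytes, eosinophils and T cells, including Ccr1 and Ccr3, which bind Ccl5.

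The first of the 3 peaks lay at the Fyco1 promoter (fold enrichment 6.05, 17 fragments), 25 bp upstream of its start, 45.4 kb from Cxcr6 and 77.4 kb from Ccr9. It was also the nearest peak to Xcr1, the receptor of Xcl1, at 10.1 kb. Upstream of the Fyco1 start, the peak (chr9:123851900-123852063, plus strand) holds 5 copies of the motif core ATGGC, in capitals below, each 30 bases from the next in a tandem repeat. None was part of AANATGGC, and 44.1% of the stretches of 50 bases in the peak are repeated in the genome.
Fyco1 upstream: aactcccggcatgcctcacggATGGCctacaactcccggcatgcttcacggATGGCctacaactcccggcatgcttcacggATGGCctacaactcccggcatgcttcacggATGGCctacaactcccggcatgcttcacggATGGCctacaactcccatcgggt
The second (fold enrichment 2.12, 64 fragments over a background of 29.6) and the third (6.39, 18 fragments) lay 936 bp apart between Xcr1 and Ccr1, and 39.0% and 28.4% of their stretches are repeated. The latter was the nearest peak to Ccr1 (43.2 kb), Ccr1l1 (53.0 kb), Ccr3 (96.5 kb) and Ccr2 (176 kb). It was in no GENCODE gene, but its summit was 310 bp downstream of the start of Gm51701, a long noncoding RNA gene of RefSeq. The 101 bases around that summit (chr9:123925408-123925508, plus strand) hold 11 CpG, in capitals.
Peak nearest to Ccr1: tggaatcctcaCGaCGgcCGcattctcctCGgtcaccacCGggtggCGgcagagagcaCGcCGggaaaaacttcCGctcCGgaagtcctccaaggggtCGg

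**Figure D5:**
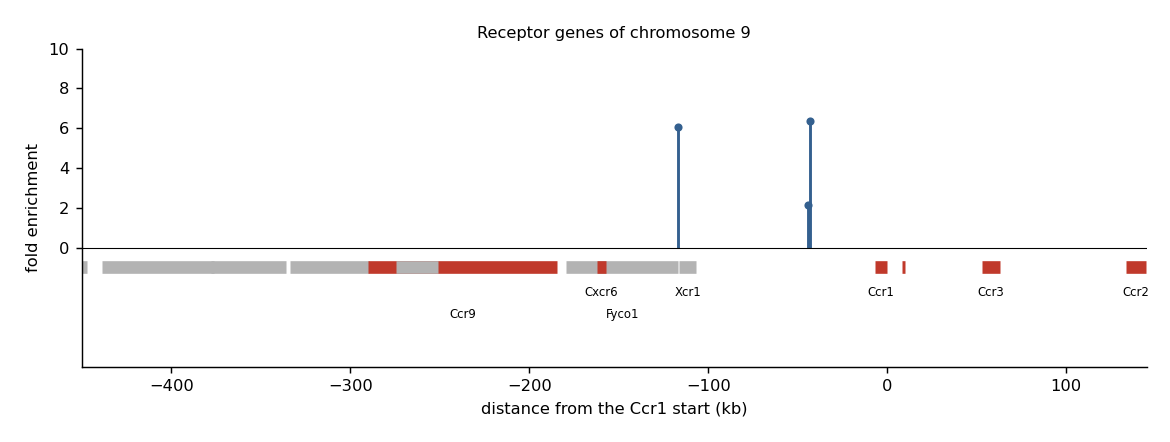
YY1 peaks (blue, height = fold enrichment) and protein-coding genes (grey; chemokine receptor genes red) on chromosome 9, by distance from the Ccr1 start (x, kb). The peaks of 6.05, 2.12 and 6.39 lie between Cxcr6 and Ccr1, and none lies at a receptor start.

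The peak nearest to Ccl22, Cx3cl1 and Ccl17 (42.0, 68.4 and 107 kb) covers a convergent pair of leucine tRNA genes of RefSeq (n-TLcag5 and n-TLcag4). Its summit lay 33 bp upstream of the first, with 17 fragments and a fold enrichment of 4.54. The 101 bases around it (chr8:94703548-94703648, plus strand) run into that tRNA gene and hold 4 CpG, in capitals.
Peak nearest to Ccl22: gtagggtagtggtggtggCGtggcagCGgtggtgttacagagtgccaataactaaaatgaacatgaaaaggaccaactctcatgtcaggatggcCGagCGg
On chromosome 4 the cluster of Ccl27a, Ccl21b, Ccl27b, Ccl19 and Ccl21a, which includes ligands of Ccr7 and Ccr10, had 0 peaks within 100 kb. Between 50.9% and 100% of the 50-base stretches around its 5′ ends are repeated in the genome, and their part in the absence of peaks was not tested. Of the other members, 46 had no repeated stretch.

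Binding was also counted over other genes of the pathway. Of the 5 chemokine genes outside the symbol rule (Xcl1, Xcr1, Pf4, Ppbp and Ccrl2), 0 were bound. Of 42 genes that act downstream of chemokine receptors, 11 were bound (26.2%), beside 18.8% of all genes. They encode the G protein subunits Gnaq, Gnb1, Gnb2 and Gng5, the desensitising proteins Arrb2 and Grk6, and Plcb3, Ptk2, Rac1, Rap1b and Rhoa, which act in migration. Gnb1 had the highest fold enrichment (9.46), with its summit 32 bp downstream of a start. All but Plcb3 (0.121) had a CpG ratio of 0.6 or more, and the median of the 42 genes was 0.712.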

How the data were processed

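MuSC DNA from 1 YY1 ChIP library was compared by the authors with 1 background library. According to the methods and labels, Bowtie2 mapped the reads to mm10 and MACS2 called peaks whose p-value was under 0.0001. The deposited fold enrichment is the ratio of fragments at the summit to the local background, after 1 is added to each, and −log10 p and −log10 q of each peak were deposited with it, both from a Poisson model of 1 pair of libraries. Fragments were recovered from the deposited fold and p-value (100% of peaks within 0.001). The score column was not used.

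Summits were placed against GENCODE M21 basic transcript starts (GRCm38), and sequence was read from the RefSeq genome of the same build. For 7 protein-coding genes no CpG ratio could be computed.

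The members, lists and named genes were chosen with earlier results of these data known. The named genes were the bound member, the 5 nearest and 3 farthest unbound members, the ligands and receptors around Ccl5, Ccl25, Ccl2, Cxcl9 and Cxcl12, and genes at bordering peaks, and others were named after their values were seen. Alternatives were other windows, start sites, peak limits, flanks and motif forms. On simulated data, 2000 of 2000 signed distances, 200 of 200 motifs and 2000 of 2000 fragment numbers were recovered. Python 3.11.15, numpy 2.4.6, pandas 2.3.3, scipy 1.17.1 and matplotlib 3.10.9 were used. RNA-seq and Hi-C were not analysed here, and values of 2 genes are not reported here.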

Additional observations from a re-analysis of the deposited data

How the results depend on the processing

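The count of 1 bound member held under 9 other choices of window, peak limit and start rule, and without the 5 members with repetitive promoters. It fell to 0 with starts of support level 1 only, because Ccl25 is bound only at a start of support level 5. That alternative, the one without repetitive promoters and the one over every start site were added after the data were seen. The share of all protein-coding genes bound was 17.7%, 19.3% and 20.4% with windows of 500, 2000 and 5000 bp, 14.6% from 1000 bp upstream to 100 bp downstream, 17.4% with peaks of q under 0.01, 11.1% with a fold enrichment of at least 5, 17.4% with the 5′ end of the gene only and 21.2% with support level 1. Among peaks of at least 5-fold enrichment, the median distance of the members rose to 271 kb, because fewer peaks remained, and that of all protein-coding genes to 188 kb. The number of peaks within 100 kb of the chromosome 11 clusters was 1. It was 0 with flanks of 0 bp or 50 kb, 5 with 500 kb, and 0 with q under 0.01 or a fold enrichment of at least 5, both of which remove the Taf15 peak. Of 43 alternative values, 28 stayed close to the value reported (counts, medians and folds within 1.5 times, shares within the 95% exact binomial interval) and 15 moved. No paired analysis was possible because there was 1 ChIP library. For the same reason no replicate could be left out. At this depth, sites under 8 fragments could not be listed.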

Other observations

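The protein-coding neighbours of the members, a set chosen after values were seen, were bound at about the background share. Of 343 other genes whose 5′ end lay within 250 kb of that of a member, 56 were bound (16.3%). Among the 160 with a CpG ratio of 0.6 or more, 49 were bound (30.6%), and among the 183 below it, 7 (3.83%). The median distance of the 343 genes to a summit was 53.6 kb, against 175 kb for the members, but their median CpG ratio was also higher (0.558 against 0.213). Among genes with a ratio below 0.6, the medians were 99.9 kb for the neighbours and 176 kb for the members. Of 82 genes whose symbol starts with Il and a digit, mostly interleukins and their receptors, 4 were bound (4.88%), beside 18.8% of all protein-coding genes. A CpG ratio below 0.6 was found in 72 of the 82, and 10 had a ratio of 0.6 or more. In these classes 4.44% and 35.6% of all protein-coding genes were bound. The bound genes were Il6st, the shared receptor chain gp130, with a fold enrichment of 7.06, Il4i1, which encodes an amino acid oxidase (5.56), Il11 (5.13) and Il10rb (3.70). Their CpG ratios were 0.835, 0.931, 0.0995 and 0.592, in that order. The median CpG ratio of the 82 genes was 0.250.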
